A study of Homo sapiens with 6 samples.

Results

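The genes described here are STAT3 and its upstream and downstream partners in cytokine signaling through the receptor subunit gp130. They were chosen by symbol and comprised STAT3, the receptor chains IL6ST, IL6R, LIFR and OSMR, the kinases JAK1 and JAK2, and the feedback and target genes SOCS3, PIM1 and BCL3. All 10 were found among the 29483 genes of the expression table. RNA was sequenced from HK-2, an immortalized cell line derived from the proximal tubule of a human kidney. The control group (n = 3 libraries) had been kept for 7 days in high glucose medium (HG, 25 mM). The case group (n = 3) had been kept in the same medium for 7 days and was then given 10 μM TEPP-46 for 1 day in the continued presence of HG. TEPP-46 is a small molecule that activates pyruvate kinase M2, an enzyme of the last step of glycolysis, by favoring its tetramer. Control cells spent that further day in HG without TEPP-46. Both groups thus carried the high glucose exposure, and neither was a normal glucose group. Values were deposited as FPKM, the fragments of a gene per kilobase of its length and scaled by the counted fragments of its library, so that levels of different genes could be set side by side. The depth behind these values was 18634891, 17924033 and 17378710 fragments in control replicates 1 to 3 and 16711934, 16047243 and 15363254 in case replicates 1 to 3.

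Cytokines of the interleukin-6 family signal through the shared chain gp130, the product of IL6ST, together with further receptor chains. The interleukin-6 receptor (IL6R) binds interleukin-6, the leukemia inhibitory factor receptor (LIFR) pairs with gp130 for several of the ligands, and the oncostatin M receptor (OSMR) does so for oncostatin M. Janus kinases bound to the receptor tails, JAK1 foremost, phosphorylate gp130 and the transcription factor STAT3, which dimerizes, enters the nucleus and binds sites of the form TTCNNNGAA. SOCS3 is induced by STAT3 and shuts off gp130 in turn, and PIM1 and BCL3 are other genes known to respond to STAT3. In tubular cells the pathway is known for its part in injury and inflammation. RNA levels do not report the phosphorylation of any of these proteins, which was not measured here.

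The labelled cell type was checked first. Keratin genes of simple epithelium were abundant, and KRT19 had the highest level of the epithelial list, with a mean of 345.9 FPKM over the 6 libraries. The summed level of that list was 1016, 996.2 and 993.8 FPKM in the control group and 1053, 838.9 and 982.2 FPKM in the case group. Of its 21 genes, 6 passed the filter on low values (a mean of at least 0.5 FPKM), and these were keratins, cadherin, vimentin and EPCAM. Genes that define the differentiated proximal tubule were near 0. The endocytic receptor LRP2 was above 0 in only control replicate 2, at 0.00686 FPKM, and the phosphate transporter SLC34A1 did not exceed 0.0862 FPKM in any library. Leukocyte markers were scarce. CD14, the most abundant of the 8 listed, averaged 0.535 FPKM, and 0 of the 6 endothelial and 0 of the 7 fibroblast markers passed the filter. CDH1, the epithelial cadherin, was downregulated [log2(FC) = -0.64, adjusted P = 0.0156, limma], and VIM, an intermediate filament gene of mesenchymal cells, was upregulated [log2(FC) = 0.66, adjusted P = 0.0204]. The other 4 tested genes of the epithelial list were not called, and its median log2(FC) was 0.02. No gene of it was called without any 1 control library or case replicate 3, in fits that called at most 1.41% of all tested genes. VIM also lost its call without the filter or the intensity trend. CD14, a co-receptor for bacterial lipopolysaccharide, was downregulated at a depth of only 7 to 31 reads per library [log2(FC) = -1.24, adjusted P = 0.0384, limma]. It passed the filter only through the control group, which averaged 0.806 FPKM against 0.264 FPKM in the case group. Its direction is therefore not independent of the filter. The call of CD14 was lost with the replicate block, without the filter, and without control replicate 2 or case replicate 3. CD14 was not tested without control replicate 1 or 3 or with a minimum of 1 FPKM, because it then fell below the filter. The summed level of the 8 leukocyte markers was 1.47, 1.27 and 1.66 FPKM in control replicates 1 to 3 and 0.898, 1.504 and 0.678 FPKM in case replicates 1 to 3. The endothelial and fibroblast lists, led by PECAM1 and COL1A1, summed to at most 0.101 and 0.454 FPKM in any library. The part of these markers in the results below was not tested.

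The 3 control libraries lay close together and the case libraries did not. On the first principal component of the scaled values, which held 37.2% of the variance, the control libraries scored -22.9, -27.8 and -23.7. Case replicates 1 and 3 scored 30.5 and 34.4, while case replicate 2 scored 9.54 and stood nearer to the controls than the other case libraries did. Calls among the tested genes of the pathway that changed without case replicate 2 are therefore given both ways.

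Among the 10 genes, the signal transducer, the interleukin-6 receptor and a kinase were lower after TEPP-46, whereas the feedback gene and the targets were not called. The comparison used limma on log2(scaled FPKM + 0.1), and DE genes were those with an adjusted P-value of at most 0.05 over all 13599 genes tested. STAT3, IL6R and JAK1 were downregulated DE genes by limma. Voom on recovered reads, which called 11.1% of all tested genes lower, called these and LIFR lower (adjusted P of LIFR = 0.0189). By either test 0 of the 10 was upregulated. With limma, 4 of the 10 had an unadjusted P under 0.05, LIFR being the fourth, and 4495 of all tested genes (33.1%) were under that level. In the whole table, 1792 genes (13.2%) were DE genes, of which 794 (5.84% of those tested) were downregulated and 998 (7.34%) upregulated. LIFR was also below the control range in all case libraries, which made 4 genes without overlap between groups, again all of them lower. Such a separation was common, since 39.9% of all tested genes showed it and 20.4% showed it in the lower direction. The median log2(FC) of the 10 genes was -0.21, with 8 of 10 below 0, and that of all tested genes was -0.0017. In bulk RNA such as this, fewer cells of a kind and less RNA per cell cannot be told apart. The plot of levels by library shows the values behind these calls.

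**Figure D1:**
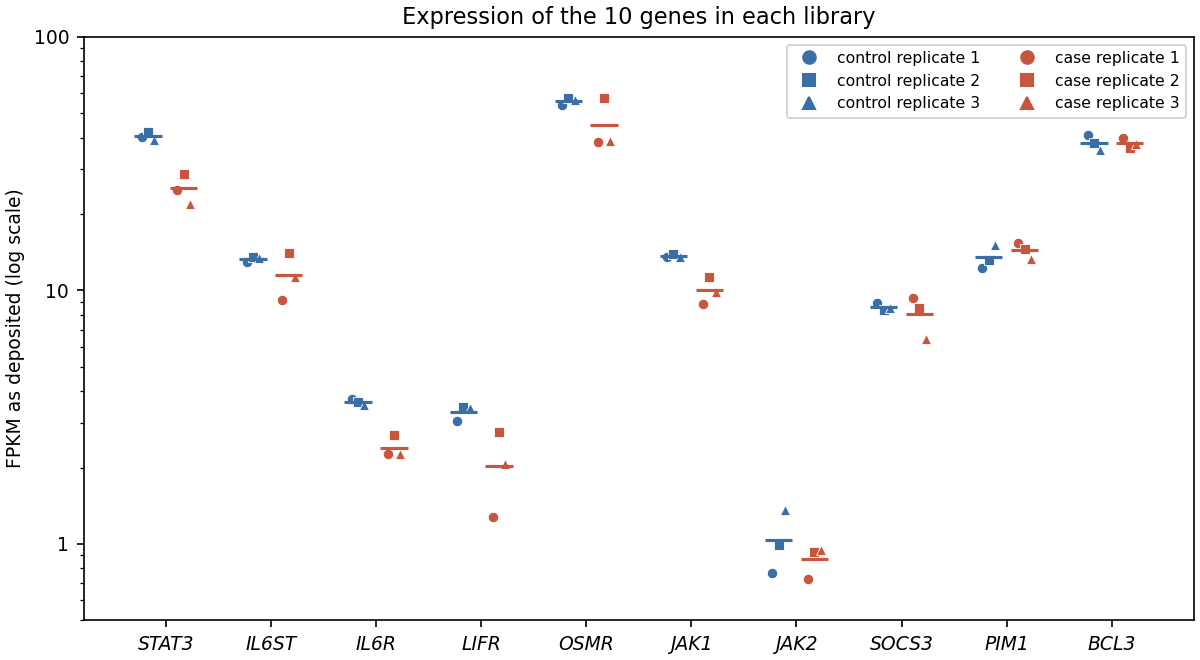
Levels of the 10 genes in FPKM on a log axis, for each of the 3 control (blue) and 3 case (red) libraries, with the marker shape giving the replicate and the horizontal bar the group mean. STAT3, IL6R, LIFR and JAK1 have all case points below all control points, and the other 6 genes overlap between the groups.

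The levels themselves spanned a wide range. In the control group OSMR was the highest at 55.7 ± 1.84 FPKM (SD, n = 3), followed by STAT3 at 40.5 ± 1.56 and BCL3 at 38.2 ± 2.55. JAK1 (13.7 ± 0.211), PIM1 (13.5 ± 1.41) and IL6ST (13.2 ± 0.323) formed the next level, and then came SOCS3 (8.60 ± 0.314), IL6R (3.63 ± 0.111), LIFR (3.32 ± 0.240) and JAK2 (1.04 ± 0.302). Neighbors in this order whose control ranges overlapped were STAT3 and BCL3, JAK1 and PIM1, and PIM1 and IL6ST. In the case group STAT3 lay below BCL3 and JAK1 below PIM1 with no overlap, while PIM1 and IL6ST, IL6ST and SOCS3, and IL6R and LIFR overlapped.

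STAT3, the transcription factor that carries the gp130 signal to the nucleus, is encoded on chromosome 17 (ENSG00000168610, GRCh38, chr17:42313324-42388540, minus strand). Its level was 40.28, 42.16 and 39.06 FPKM in the control group and 24.79, 28.85 and 21.98 FPKM in the case group. Every case library lay below every control library, and case replicate 2 was the highest of the case group. STAT3 fell by 34.6% [log2(FC) = -0.61, SE = 0.10, 95% interval -0.85 to -0.38, adjusted P = 0.0149, limma], which placed STAT3 at rank 278 of the 13599 genes by P-value. These values rested on 2976 to 6659 reads per library. Without case replicate 2 the change was -0.69 with an adjusted P of 0.00757.

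Of the receptor chains, IL6R, which binds interleukin-6, is encoded on chromosome 1 (ENSG00000160712, chr1:154405193-154469450, plus strand). It stood at 3.734, 3.640 and 3.513 FPKM in the control group and at 2.253, 2.675 and 2.259 FPKM in the case group. The case values were all below the control values, again with case replicate 2 nearest to them. IL6R was downregulated [log2(FC) = -0.51, SE = 0.10, 95% interval -0.75 to -0.27, adjusted P = 0.0233, limma] at a depth of 224 to 449 reads per library. Without case replicate 2 its log2(FC) was -0.56 (adjusted P = 0.0116).

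LIFR, the receptor chain for leukemia inhibitory factor, is encoded on chromosome 5 (ENSG00000113594, chr5:38474668-38608354, minus strand). Control values were 3.044, 3.470 and 3.448 FPKM and case values 1.276, 2.752 and 2.063 FPKM. All case libraries lay below the control libraries, yet they were far apart among themselves, with case replicate 1 the lowest. LIFR had the most negative log2(FC) of the 10 genes, at -0.67 (SE = 0.22, 95% interval -1.19 to -0.15), and did not pass the threshold (adjusted P = 0.0830, limma). With case replicate 2 left out it did pass, at -0.89 and an adjusted P of 0.0197. LIFR also passed in TPM, with voom, with the replicate block and with GC correction. Those fits called 17.6%, 11.1%, 5.6% and 10.9% of all tested genes lower, respectively. In GENCODE v44, 629 exon bases of LIFR are shared with the antisense gene LIFR-AS1, which averaged 0.130 FPKM.

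OSMR, the receptor chain for oncostatin M and the most abundant of the 10 genes, lies on chromosome 5 (ENSG00000145623, chr5:38845858-38945596, plus strand). Its control values were 53.72, 57.32 and 56.18 FPKM, against 38.36, 57.27 and 38.83 FPKM in the case group. Case replicates 1 and 3 were well below the controls, whereas case replicate 2 lay within their range. Over all libraries the log2(FC) was -0.26 (SE = 0.14, 95% interval -0.58 to 0.05, adjusted P = 0.216, limma). Leaving out case replicate 2 changed the call, with a log2(FC) of -0.43 and an adjusted P of 0.00913.

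IL6ST encodes gp130 itself, the chain that all receptors of the family share (ENSG00000134352, chr5:55935095-55995022, minus strand). It measured 12.89, 13.50 and 13.37 FPKM in the control group and 9.131, 14.07 and 11.30 FPKM in the case group. Case replicate 2 exceeded all controls and the other case libraries lay below them, so the groups overlapped. IL6ST was not a DE gene [log2(FC) = -0.15, SE = 0.13, 95% interval -0.45 to 0.15, adjusted P = 0.454, limma], and it was not called without case replicate 2 either, at -0.28 and an adjusted P of 0.0726. The shared chain was thus the receptor subunit with the smallest estimated change, although the interval still held a fall of 0.45.

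**Figure D2:**
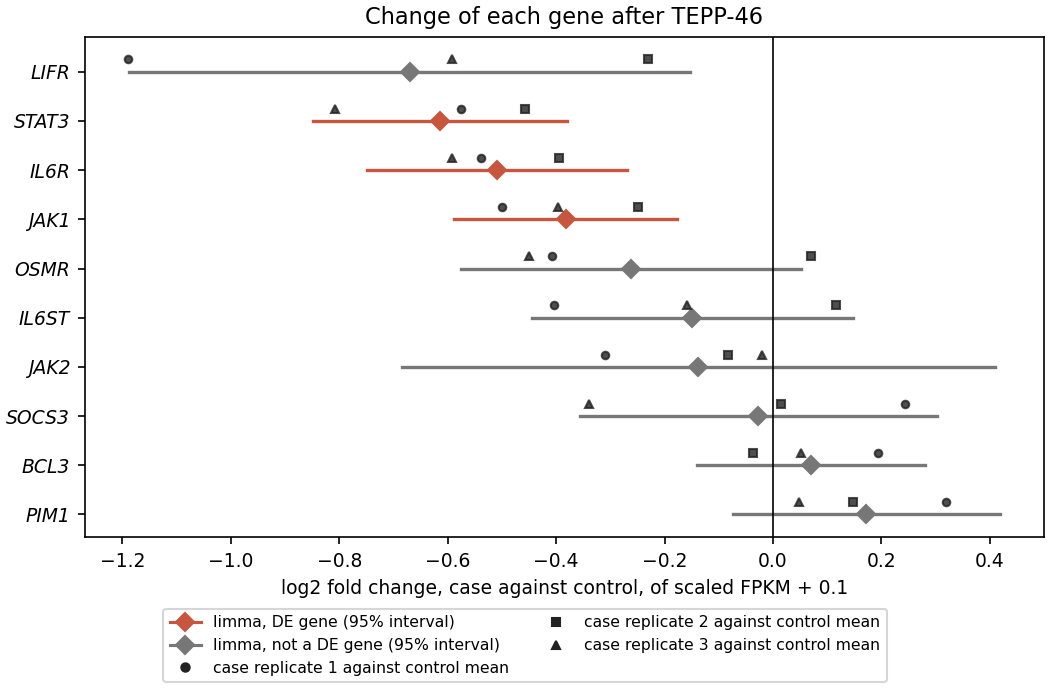
Change of each gene in the case group against the control group on the log2 scale. Diamonds and bars give the limma estimate with its 95% interval, red for DE genes and gray for the others, and the small markers give each case library against the control mean, with case replicate 2 (square) nearer to 0 than both other case libraries for STAT3, IL6R, LIFR and JAK1.

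JAK1, the kinase on which gp130 signaling mainly depends, lies on chromosome 1 (ENSG00000162434, chr1:64833223-65067754, minus strand). Its values were 13.59, 13.94 and 13.55 FPKM in the control group and 8.819, 11.26 and 9.882 FPKM in the case group. The controls spanned a narrow range and all case libraries were below it. JAK1 fell by 23.3% [log2(FC) = -0.38, SE = 0.09, 95% interval -0.59 to -0.18, adjusted P = 0.0321, limma]. Without case replicate 2 its log2(FC) was -0.45 (adjusted P = 0.0114).

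JAK2, a second kinase that associates with gp130, was the least abundant of the 10 genes (ENSG00000096968, chr9:4984390-5129948, plus strand). It stood at 0.765, 0.986 and 1.36 FPKM in the control group and at 0.727, 0.929 and 0.9495 FPKM in the case group, from 75 to 146 reads per library. The groups overlapped and the controls were the more scattered group. The log2(FC) of -0.14 (SE = 0.24, adjusted P = 0.724, limma) had a 95% interval from -0.68 to 0.41, so that a change as large as that of STAT3 could not be told from none at this depth. The remaining 2 kinases of the family were called neither by limma nor by voom, which called 13.2% and 20.7% of all tested genes. An unadjusted P under 0.05 was reached by 1 of them, against 33.1% of all tested genes. TYK2 was called lower in TPM and without case replicate 1, in fits that called 17.6% and 7.86% of all tested genes lower. TYK2 was at 23.92, 24.22 and 23.37 FPKM in the control group and 20.82, 19.60 and 17.53 FPKM in the case group [log2(FC) = -0.23, adjusted P = 0.134], and JAK3, a kinase mainly of blood cells, stayed between 0.573 and 1.03 FPKM [log2(FC) = -0.42, adjusted P = 0.196].

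SOCS3, the feedback inhibitor that binds gp130 and JAK1, is a short gene on chromosome 17 (ENSG00000184557, chr17:78356778-78360077, minus strand). It measured 8.950, 8.346 and 8.503 FPKM in the control group and 9.324, 8.502 and 6.452 FPKM in the case group. Case replicate 1 was above all controls and case replicate 3 below them, and the groups overlapped. Its log2(FC) was -0.03 (SE = 0.14, 95% interval -0.36 to 0.30, adjusted P = 0.916, limma).

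PIM1, a serine/threonine kinase that promotes survival, lies on chromosome 6 (ENSG00000137193, chr6:37170152-37175428, plus strand). Values of 12.29, 13.14 and 15.04 FPKM in the control group overlapped with 15.36, 14.59 and 13.25 FPKM in the case group. Its log2(FC) was 0.17 (SE = 0.11, 95% interval -0.07 to 0.42, adjusted P = 0.295, limma). BCL3, a nuclear cofactor of NF-κB, lies on chromosome 19 (ENSG00000069399, chr19:44747705-44760044, plus strand). It stood at 40.85, 38.00 and 35.76 FPKM in the control group and 39.90, 36.41 and 37.66 FPKM in the case group. The groups overlapped almost entirely, and its log2(FC) of 0.07 had a 95% interval from -0.14 to 0.28 (adjusted P = 0.630). Whether the change of STAT3 differed from those of SOCS3, PIM1 and BCL3 was not tested.

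The rest of the pathway was described from lists of its other genes by role, shown in the plot of tested genes by role. Of 86 genes listed outside the 10, 63 passed the filter, and of these 13 were upregulated and 2 downregulated DE genes, against 7.34% and 5.84% of all tested genes, with a median log2(FC) of -0.01. Among the ligands, 4 of 9 passed the filter and 2 were upregulated (7.34% of all tested genes). LIF, the ligand of LIFR, was at 36.96, 40.08 and 36.36 FPKM in the control group and at 46.16, 49.00 and 45.69 FPKM in the case group. CLCF1, a neurotrophic cytokine that signals through LIFR and gp130, was at 10.05, 9.435 and 8.537 FPKM and at 13.09, 11.86 and 13.25 FPKM, respectively. For both ligands every case library exceeded every control library. The change was 0.39 for LIF (SE = 0.07, adjusted P = 0.0204, limma) and 0.52 for CLCF1 (SE = 0.10, adjusted P = 0.0215). LIF kept its direction in all 19 alternative settings and lost its call in 7 of them, among these quantile normalization and TPM, and CLCF1 lost its call in 5. No ligand was called when any 1 control library or case replicate 3 was left out. Those fits called 0.771%, 0.507%, 0.64% and 1.41% of all tested genes. In them the log2(FC) was from 0.36 to 0.43 for LIF and from 0.45 to 0.58 for CLCF1. IL11 was also above the control range in each case library, at 22.40, 21.23 and 21.86 against 20.09, 18.90 and 20.14 FPKM, and was not called [log2(FC) = 0.22, adjusted P = 0.0993], whereas without case replicate 2 it was (0.27, adjusted P = 0.0447). IL6 itself overlapped between groups, at 5.836, 5.393 and 5.451 FPKM in the control group and 5.148, 4.006 and 6.072 FPKM in the case group [log2(FC) = -0.07, adjusted P = 0.780]. OSM, the ligand of OSMR, was found in only control replicate 1, with 1 read.

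**Figure D3:**
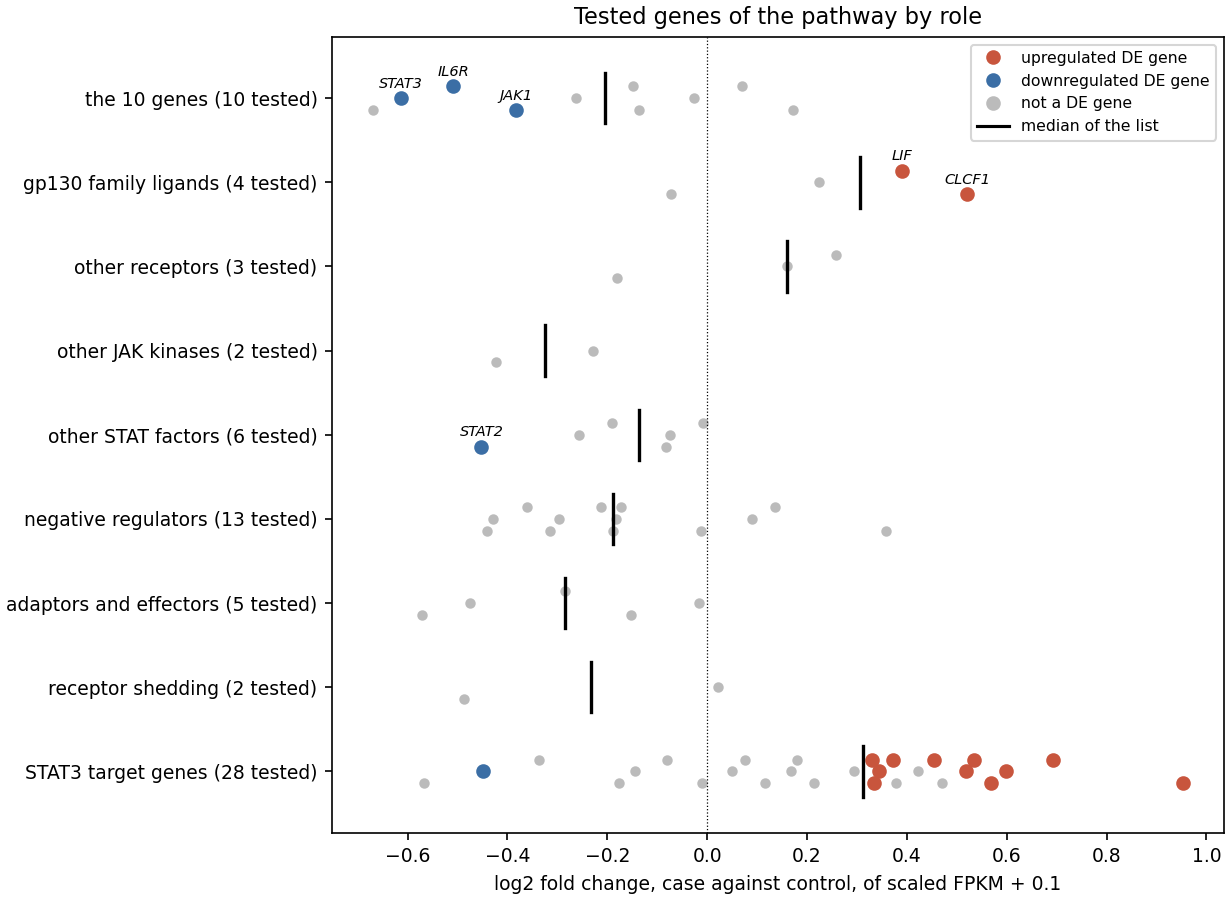
log2(FC) of every tested gene of the pathway, grouped by role, with upregulated DE genes in red, downregulated DE genes in blue, the others in gray and the median of each list as a black bar. The ligands and the STAT3 target genes have medians of 0.31, and the 10 genes have a median of -0.21.

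Of 8 other receptors listed, 3 passed the filter and 0 were called by limma or by voom, with 0 at an unadjusted P under 0.05. The shares of all tested genes were 13.2%, 20.7% and 33.1%, respectively. The most abundant, IL27RA, the receptor chain for interleukin-27, was at 25.1 ± 1.25 FPKM in the control group and 26.6 ± 1.54 FPKM in the case group [log2(FC) = 0.16, adjusted P = 0.251, limma]. CNTFR, the receptor for ciliary neurotrophic factor, did not exceed 0.0273 FPKM, and CSF3R was listed at 0 in every library. Of the other STAT factors, 6 were tested and 1 was downregulated, against 5.84% of all tested genes. At an unadjusted P under 0.05 there were 3 of them, against 33.1% of all tested genes. STAT2, which acts in type I interferon signaling, was at 7.229, 7.224 and 7.545 FPKM in the control group and 4.858, 5.631 and 4.720 FPKM in the case group. All case values were below the control values, and the log2(FC) was -0.45 (SE = 0.09, adjusted P = 0.0223). Its call was lost when any 1 control library or case replicate 3 was left out, in fits that called at most 1.41% of all tested genes. The log2(FC) of STAT2 in these fits was from -0.46 to -0.40. STAT6, STAT5B, STAT4 and STAT5A had log2(FC) values from -0.26 to -0.01 without a call. STAT6 and STAT5B were both called lower in TPM, STAT6 also without case replicate 1 and STAT5B also with GC correction. These fits called 17.6%, 7.86% and 10.9% of all tested genes lower, respectively.

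The negative regulators, which comprise further SOCS proteins, the PIAS proteins that restrain STAT factors and the phosphatases that remove the phosphates, had 13 of 15 genes tested and 0 called at the adjusted threshold by limma, with 6 of the 13 at an unadjusted P under 0.05, against 33.1% of all tested genes. With voom on recovered reads, which called 20.7% of all tested genes, 3 passed, PIAS1 and PIAS3 downward and PTPN2 upward. Without case replicate 2, limma called 4 lower, namely SOCS5, SOCS7, PIAS1 and PIAS3, with log2(FC) values of -0.40, -0.50, -0.52 and -0.35, in a fit that called 12.4% of all tested genes lower. In TPM it called 6 lower, where 17.6% of all tested genes were called lower. Without case replicate 1 it called 1 higher and 1 lower, out of 8.92% and 7.86% of all tested genes. The most abundant was PTPN1, a phosphatase of Janus kinases, at 34.3 ± 1.03 FPKM in the control group and 28.6 ± 2.34 FPKM in the case group [log2(FC) = -0.19, adjusted P = 0.144]. PTPN2, a phosphatase of the same family, was at 8.343, 7.997 and 8.040 FPKM in the control group and 8.378, 10.46 and 11.07 FPKM in the case group [log2(FC) = 0.36, adjusted P = 0.0560]. PIAS1 and PIAS3 had log2(FC) values of -0.44 and -0.32 (adjusted P = 0.0589 and 0.0613). Of the adaptors that link gp130 to other cascades, 5 of 6 were tested and 0 called by limma, with 2 at an unadjusted P under 0.05 (33.1% of all tested genes), and voom called 2 of them (20.7% of all), PTPN11 and SOS1. Limma called the same 2 lower without case replicate 2 (-0.64 and -0.74, adjusted P = 0.0133 and 0.0334). PTPN11, the phosphatase SHP2 that docks on gp130, was below the control range in all case libraries, at 16.72, 28.96 and 22.49 against 30.96, 34.01 and 32.79 FPKM, and missed the threshold [log2(FC) = -0.48, adjusted P = 0.0817]. Of the proteases that shed IL6R, ADAM10 had a log2(FC) of -0.49 (adjusted P = 0.122) and ADAM17 of 0.02 (adjusted P = 0.954), while voom called ADAM10, as did limma without case replicate 2 (-0.69, adjusted P = 0.0194).

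Of the target genes of STAT3 other than SOCS3, PIM1 and BCL3, more were upregulated than downregulated. Of 38 listed, 28 passed the filter, 11 were upregulated and 1 was downregulated, against 7.34% and 5.84% of all tested genes, and the median log2(FC) was 0.31. Most of these genes also answer to other factors, among them NF-κB, AP-1 and p53, and the list was put together with earlier results of these data known, so that its direction is no independent evidence. GADD45B, a stress response gene, changed the most, from 37.82, 35.25 and 37.30 FPKM in the control group to 73.55, 61.03 and 68.84 FPKM in the case group. Its groups were far apart [log2(FC) = 0.95, SE = 0.10, adjusted P = 0.00477, limma]. IER3, an immediate early gene that modulates cell death, rose from 349.0 ± 9.03 to 535.2 ± 23.0 FPKM [log2(FC) = 0.69, adjusted P = 0.00706]. FOSL1, a component of AP-1, rose from 122.3 ± 1.69 to 172.0 ± 3.94 FPKM [log2(FC) = 0.57, adjusted P = 0.00879]. These 3 genes had the smallest adjusted P-values of the list.

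The adhesion receptor gene ICAM1 rose from 67.3 ± 3.21 to 91.7 ± 8.94 FPKM [log2(FC) = 0.52, adjusted P = 0.0177, limma], and NNMT, an enzyme that methylates nicotinamide, rose from 135.5 ± 1.92 to 186.9 ± 20.7 FPKM [log2(FC) = 0.53, adjusted P = 0.0213]. MYC and FOS, both transcription factors of growth responses, had log2(FC) values of 0.45 and 0.60 (adjusted P = 0.0245 and 0.0410). The last 4 upregulated genes were near the threshold. They were TIMP1, an inhibitor of metalloproteinases, VEGFA, the angiogenic growth factor, and the survival genes BCL2L1 and BIRC5, with log2(FC) values of 0.37, 0.33, 0.34 and 0.33 and adjusted P-values from 0.0433 to 0.0495. CCND1, which encodes cyclin D1, was the downregulated gene of the list, from 44.5 ± 0.960 to 31.0 ± 3.48 FPKM [log2(FC) = -0.45, adjusted P = 0.0193]. Its call was lost in 4 of 19 alternatives, those without any 1 control library or case replicate 3. Over all 19 its log2(FC) stayed between -0.65 and -0.39. HP and LBP, acute phase genes of the liver, were listed at 0 in every library, and SAA1 was at 1.01 ± 0.228 FPKM in the control group and 1.00 ± 0.0825 FPKM in the case group. LCN2, a marker of tubular injury, stood at 15.3 ± 1.31 FPKM in the control group and 12.8 ± 1.47 FPKM in the case group, and the groups overlapped [log2(FC) = -0.18, adjusted P = 0.292]. The number of upregulated targets varied with the scaling, from 11 to 7 on unscaled FPKM (4.87% of all tested genes), 6 with quantile normalization (6.42%) and 6 in TPM (2.82%). In TPM 3 were downregulated, where 17.6% of all tested genes were. Median log2(FC) values of the targets were 0.23, 0.17 and 0.11, respectively. With the gene length correction, 8 targets were upregulated (6.42% of all tested genes) and the median was 0.19, with FOS, BCL2L1, BIRC5 and TIMP1 no longer called and NAMPT called. Upregulated targets numbered 2, 1 and 1 without control replicates 1, 2 and 3, in fits that called at most 0.558% of all tested genes higher. They numbered 4 without case replicate 3 (0.89% of all), 8 without case replicate 1 (8.92%), and 4 without the filter (1.18%) or the intensity trend (3.21%). Without case replicate 2 they numbered 12, in a fit that called 13.4% of all tested genes higher and 12.4% lower. VEGFA was then no longer called (adjusted P = 0.0534, limma) and PIM3 and CEBPD were. HIF1A joined CCND1 as a downregulated gene (-0.42, adjusted P = 0.0339).

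The promoters of these genes were searched for the STAT recognition sequence TTCNNNGAA, which reads the same on both strands. No other motif was searched. In the 250 bases before the RefSeq start sites (GRCh38.p14), 6.57% of 35116 windows of all genes held a match. Of 18 windows of the 10 genes, 2 did, both at alternative start sites of LIFR, and windows of STAT3, SOCS3, PIM1 and BCL3 held none. The SOCS3 windows (chr17:78360926-78361175 and chr17:78359668-78359917) and the BCL3 window (chr19:44748458-44748707) did not cover the bases just before the GENCODE v44 gene start. A match there would have been missed. Among the other listed genes with a window, CISH, FGA, ICAM1 and PROS1 held a match. The windows of LIFR are shown because they are the ones with a match among the 10 genes. That of STAT3 is shown as the gene with the smallest P-value, and that of ICAM1 as an upregulated target with a match. Each runs 5′ to 3′ on the strand of its gene, and capitals mark the match. The LIFR windows lie at chr5:38595406-38595655 and chr5:38557468-38557717 (minus strand), with matches that begin 165 and 182 bases before the start site. The STAT3 window lies at chr17:42388443-42388692 (minus strand) and the ICAM1 window at chr19:10270870-10271119 (plus strand), where the match begins 75 bases before the start site.
LIFR, start site 1: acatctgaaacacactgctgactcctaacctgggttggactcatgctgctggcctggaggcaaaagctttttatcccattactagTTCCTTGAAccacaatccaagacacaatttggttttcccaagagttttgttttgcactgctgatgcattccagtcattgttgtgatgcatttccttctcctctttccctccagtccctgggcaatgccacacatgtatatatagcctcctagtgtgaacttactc
LIFR, start site 2: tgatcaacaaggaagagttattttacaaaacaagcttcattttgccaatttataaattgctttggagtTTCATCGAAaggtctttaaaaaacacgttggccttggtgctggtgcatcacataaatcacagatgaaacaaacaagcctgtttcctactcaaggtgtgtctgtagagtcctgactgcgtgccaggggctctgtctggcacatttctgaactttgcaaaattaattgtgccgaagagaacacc
STAT3: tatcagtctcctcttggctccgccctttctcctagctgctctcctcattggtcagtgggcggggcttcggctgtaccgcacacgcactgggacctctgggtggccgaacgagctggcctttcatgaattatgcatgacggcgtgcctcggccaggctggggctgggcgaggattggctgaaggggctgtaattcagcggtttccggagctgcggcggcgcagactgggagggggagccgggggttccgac
ICAM1: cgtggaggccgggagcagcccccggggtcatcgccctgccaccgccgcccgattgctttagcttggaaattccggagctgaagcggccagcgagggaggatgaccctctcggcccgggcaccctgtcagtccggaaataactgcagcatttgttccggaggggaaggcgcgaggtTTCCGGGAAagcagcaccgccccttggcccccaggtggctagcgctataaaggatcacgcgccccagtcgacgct
A match is a description of the letters in the window, and binding of STAT3 was not measured in these libraries.

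Gene length moved with the direction of change in the whole table. Over quartiles of the tested genes by length, from the shortest to the longest, the median log2(FC) was 0.16, 0.08, -0.05 and -0.19. The share of downregulated DE genes was 1.85%, 3.11%, 5.98% and 12.4% in the same order, and that of upregulated DE genes 10.9%, 10.6%, 5.45% and 2.38%. STAT3 (8812 bases), LIFR (11864), IL6ST (9292) and OSMR (7174) belonged to the longest quartile, IL6R (6453), JAK1 (6317) and JAK2 (6170) to the third, and SOCS3 (2734), PIM1 (2977) and BCL3 (3242) to the second. Calls were made for 1 of 4 genes in the longest quartile, 2 of 3 in the third and 0 of 3 in the second. After a smooth trend of the values on gene length was removed from each library, STAT3, IL6R and JAK1 kept their calls, with log2(FC) values of -0.45, -0.42 and -0.30 (adjusted P = 0.0263, 0.0293 and 0.0422, limma), while IL6ST stood at 0.04 and LIFR at -0.40 (adjusted P = 0.156). The length trend was weakest in case replicate 2, where the medians of the shortest and longest quartiles were 0.06 and -0.07, against 0.25 and -0.28 in case replicate 1 and 0.22 and -0.21 in case replicate 3.

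**Figure D4:**
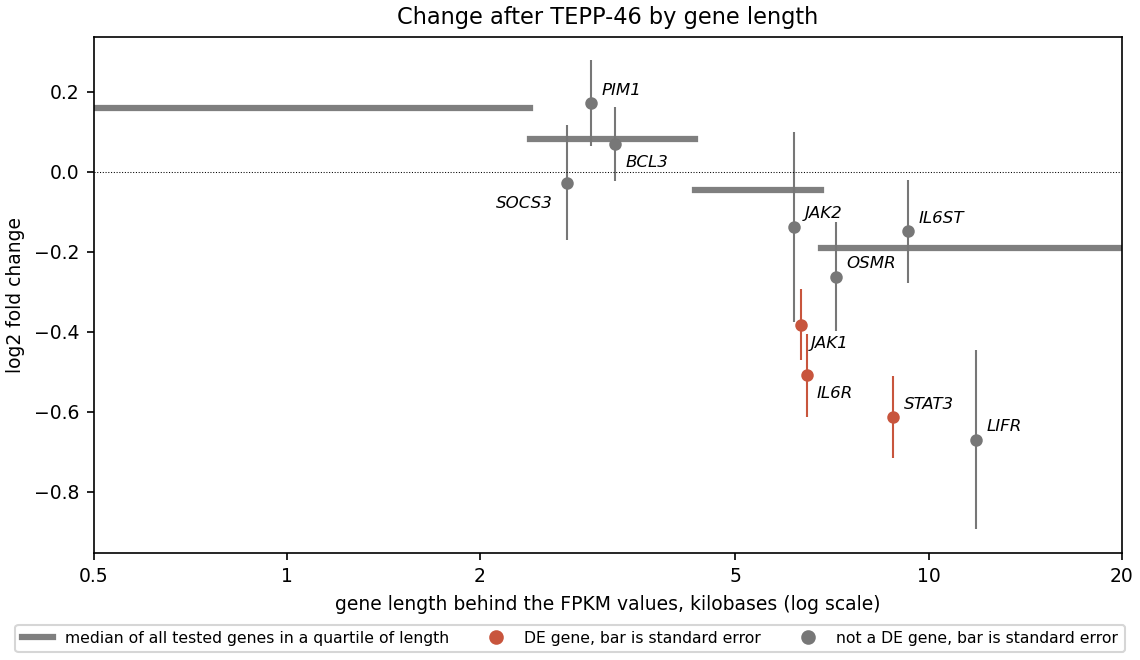
log2(FC) of the 10 genes, with standard errors, against the gene length behind the FPKM values on a log axis, red for DE genes and gray for the others. Thick bars give the median of all tested genes in each quartile of length (the outermost bars run past the axis); STAT3, IL6R, JAK1 and LIFR lie below the bar of their quartile by more than their standard error.

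The calls depended on which library was left out. With any 1 control library left out, 0 of the 10 genes was called in fits that called 0.771%, 0.507% and 0.64% of all tested genes, and the adjusted P of STAT3 reached at most 0.0798, although its log2(FC) stayed between -0.81 and -0.45 over all 19 alternative settings. Without case replicate 3 only STAT3 was called (1.41% of all tested genes), and without case replicate 2, where 25.7% of all tested genes were called, the DE genes were STAT3, IL6R, JAK1, LIFR and OSMR. In the plot of adjusted P-values by setting, STAT3 lay under the threshold in 16 of 19 alternatives, IL6R in 14, JAK1 in 13 and LIFR in 5.

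**Figure D5:**
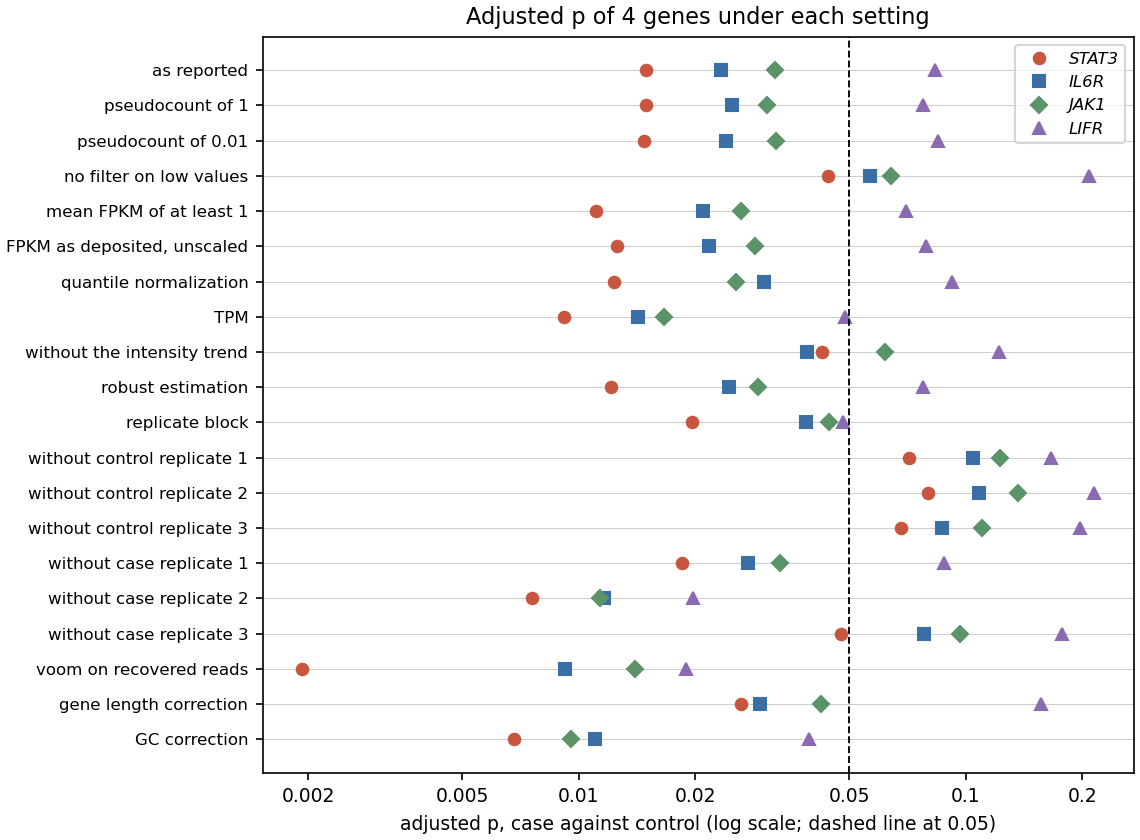
Adjusted P-values of STAT3, IL6R, JAK1 and LIFR on a log axis, for the fit as reported and for each alternative setting, with the threshold as a dashed line. STAT3 is the leftmost or close to it in most settings, and all 4 genes lie to the right of the line when a control replicate is left out.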

How the data were processed

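RNA of 6 HK-2 libraries (3 control, 3 case) was analyzed from the authors' deposited table of FPKM values of 29483 genes. Per the study's methods, reads were aligned to GRCh38.p13 with HISAT2 2.1.0 and counted with HTSeq 0.6.0. The annotation version, strand setting and RNA selection are not given in the sources used here. FPKM was divided by a median-of-ratios factor per library, and log2(value + 0.1) of genes with a mean of at least 0.5 FPKM was tested with limma 3.58.1 (intensity trend, no covariates, R 4.3.3) and Benjamini-Hochberg adjustment over all 13599 tested genes. Fold changes are on that log2 scale, which understates low genes. A count test was not used because the values are FPKM. Whole reads were recovered from the steps of the FPKM values, to within 0.01 of a whole number. GENCODE v44 exon lengths gave such reads for 12598 genes. For 15323 genes the shortest length that gave such reads was taken from the values alone. The gene lengths used above are these lengths. Together they resolved 27921 of 27922 genes above 0, and the reads summed to at least 99.75% of each library's depth. On recovered reads, voom called 2813 genes, as an alternative chosen after seeing the data, as were gene length and GC correction. The other alternatives were pseudocounts of 1 and 0.01, no filter or a minimum of 1 FPKM, unscaled FPKM, quantile normalization, TPM, no trend, robust estimation, a replicate block and leaving out each library. Gene positions are those of GENCODE v44 on GRCh38, and promoter windows are from RefSeq, which held 67 of the listed genes. The study calls the libraries independent replicates, the labels name no separate cultures, and P-values measure the spread between these libraries. The named genes were the 10 genes in full and, from each list by role, those past the threshold and otherwise the most abundant, and any further gene named was picked with its values in view. The genes and lists were chosen with earlier results of these data known. Listed genes without a row (IL27 and CRP of the pathway, others among the markers) were not analysed here, and 1 listed gene is not reported here. The fitting procedure was tested on simulated data.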

Additional observations from a re-analysis of the deposited data

How the results depend on the processing

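Over 19 alternatives, 0 called results among the 10 genes and the 63 other tested pathway genes changed sign. The number of DE genes was 1792 as reported, and 520 without a filter on low values, 2770 in TPM, 852 without the intensity trend, 2813 with voom on recovered reads and 3243 with GC correction. Upregulated genes were 55.7% of DE genes as reported, 37.1% on unscaled FPKM and 13.8% in TPM, where the median of all genes shifted by -0.19 on the log2 scale, and 72.4% to 79.7% without a control replicate. Leaving out 1 library gave from 69 (without control replicate 2) to 3495 DE genes (without case replicate 2), with 105 and 87 without control replicates 1 and 3 and 192 without case replicate 3. The number of the 10 genes called ranged from 0 to 5 in these fits and was 1 (STAT3) without the filter. TPM, voom and GC correction each called 4, adding LIFR, and JAK1 was lost without the intensity trend. Over all tested genes, same-numbered libraries did not deviate together (correlations of 0.06, 0.10 and -0.05). With 3 libraries per group this cannot show whether they shared a culture or preparation, which the labels do not state. With the replicate block, 1610 genes, 4 of the 10 genes (LIFR at an adjusted P of 0.0482), 6 targets upward and 1 adaptor were called, against 6.24% of all tested genes higher and 5.6% lower. GADD45B kept its call in all 19 alternatives. Of the targets near the threshold, BCL2L1, BIRC5 and VEGFA lost theirs in 12 of 19, and TIMP1 and FOS in 11. The causes were not tested. Low depth limits SOCS1 (4 to 20 reads), SAA1 (10 to 16), CD14 (7 to 31) and S100A9 (31 to 95), and JAK2 (75 to 146) among the 10 genes. Exon overlap with other genes in GENCODE v44 reached 6.61% of exon bases for IL6ST, and counts of such bases are uncertain without a stated strand setting.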

Other observations

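The genes whose values followed STAT3 most closely over the 6 libraries were ARHGAP17 (Pearson r = 0.9995), SALL2 (0.998) and AFAP1 (0.997), and 521 tested genes had an r over 0.95. SALL2 and AFAP1 were downregulated DE genes [log2(FC) = -1.02 and -0.69, adjusted P = 0.0144 and 0.0121, limma], and ARHGAP17 was not called [log2(FC) = -0.19, adjusted P = 0.213]. For SOCS3 only 26 genes had an r over 0.95, led by PPOX (0.998) and MTA1 (0.989), both with a log2(FC) of -0.02. These correlations share the 6 libraries and the difference between the groups, and they are a description of the likeness of patterns.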
